A study of Mus musculus with 12 samples.

Results

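The 44 genes described here encode proteins that make ribosomes or reside in the nucleolus, and they were taken by name from a table of 18269 genes measured in mouse embryoid bodies. Their rows were found by Ensembl gene ID with the version dropped, all 44 had a row, and all 44 were abundant enough to be tested. Embryoid bodies are aggregates of embryonic stem cells left to differentiate. The samples came from a pair of C57BL/6 embryonic stem cell lines. Line 4_1, genotype Gcn5fx/fx, carries the histone acetyltransferase gene Gcn5 (symbol Kat2a) between recombination sites and is called floxed. Line 4C2, genotype Gcn5-/-, lacks the gene by its labels and is called null. Each line was sampled at day 3 and at day 5 of differentiation, no other treatment is named, and each of the 4 groups holds 3 samples, although the series text speaks of duplicates. With 1 line per genotype, line and genotype cannot be told apart. Nothing in the labels says that the 3 samples of a group came from separate cultures, so p-values measure the spread between samples of a line, which may be technical.

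Ribosome biogenesis starts in the nucleolus, where RNA polymerase I transcribes the ribosomal DNA repeats into a long precursor. Small nucleolar ribonucleoproteins (snoRNPs) guide methylation and pseudouridylation of that precursor, a processome and many assembly factors cut and fold it, and the subunits mature on separate paths before export. Pluripotent and early embryonic cells are known for large nucleoli and high output of this pathway, and Myc proteins are known as activators of many of its genes. The 44 genes were grouped by role into 4 genes of ribosomal DNA transcription, 6 abundant nucleolar proteins with several roles, 8 core proteins of snoRNPs, 12 factors of small subunit assembly and 14 factors of large subunit assembly. Of the 44, 7 lie on chromosome 11, the chromosome that also carries Kat2a, and these are kept apart in what follows: Npm1, Mybbp1a, Nhp2, Pno1, Tsr1, Pes1 and Nle1.

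Libraries held 18022071 to 29446068 reads assigned to genes, and the 44 genes took 0.884% to 1.21% of them. Kat2a itself, chr11:100704746-100712465, had 2228 ± 151 normalised reads (mean ± SD, n = 3) in floxed and 701 ± 122 in null samples at day 3, and 2207 ± 165 against 817 ± 67.5 at day 5. The log2 differences were -1.68 ± 0.11 and -1.43 ± 0.11 (limma, ± SE; Benjamini-Hochberg adjusted p = 1.01e-05 and 1.60e-05), and a table with 1 value per gene does not show which part of the gene the remaining reads came from. The summed values of 6 pluripotency markers ran from 17012 to 23198 in floxed samples at day 3 and from 8605 to 11774 at day 5. The sums of 5 endoderm markers ran from 163 to 231 and from 542 to 1720. Of the 6 pluripotency markers, 3 fell and 3 rose between the days in the floxed line (limma, adjusted p under 0.05). Their falling sum therefore does not stand for each marker, while all 5 endoderm markers rose. All normalised values are read counts that the authors had divided by 1 size factor per sample.

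Promoters were read because Myc proteins bind the E-box CACGTG, and because Myc was among the genes that differed between the lines. RefSeq (GRCm38.p6) gave a promoter window, 250 bases before to 50 bases from the start of transcription, for 38 of the 44 genes. Genes with several windows, such as Wdr12 and Rrp1b, were counted once. The E-box, which reads the same on both strands, was present in a window of 11 of these 38 genes (28.9%). The share was 11.2% of the 12402 genes of the table with a window and 8.09% of all 27025 genes with a window. In 9 of the 11 genes the E-box began 2 to 40 bases after the start base, counted as base 0. Among the 1394 genes of the table with an E-box, 15.9% had one after the start. The 30 bases around each of the 11 are printed 5′ to 3′ on the gene's strand, with the E-box in capitals. They are shown because the bases beside the E-box can be read in them, and the start base is not marked. They stand in the order of the position of the E-box's first base, which is given before the coordinates.
Imp4, at -121, chr1:34439696-34439725, + strand: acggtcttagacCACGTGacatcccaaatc
Nop2, at -60, chr6:125131811-125131840, + strand: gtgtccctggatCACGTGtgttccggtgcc
Pes1, at 2, chr11:3963965-3963994, + strand: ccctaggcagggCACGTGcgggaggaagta
Wdr43, at 17, chr17:71616220-71616249, + strand: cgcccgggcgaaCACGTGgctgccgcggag
Nle1, at 23, chr11:82908355-82908384, - strand: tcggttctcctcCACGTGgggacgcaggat
Tsr1, at 24, chr11:74898092-74898121, + strand: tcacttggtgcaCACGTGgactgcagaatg
Ltv1, at 28, chr10:13193092-13193121, - strand: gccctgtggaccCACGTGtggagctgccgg
Grwd1, at 34, chr7:45830740-45830769, - strand: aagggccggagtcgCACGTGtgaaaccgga
Pno1, at 37, chr11:17211540-17211569, - strand: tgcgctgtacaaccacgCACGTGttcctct
Utp20, at 37, chr10:88826765-88826794, - strand: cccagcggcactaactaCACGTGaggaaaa
Mybbp1a, at 40, chr11:72441347-72441376, + strand: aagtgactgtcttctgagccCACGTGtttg

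A pair of whole upstream stretches shows the range. Nop2, a methyltransferase of large subunit ribosomal RNA, has its E-box upstream. Dkc1, the pseudouridine synthase of the H/ACA snoRNPs, had the smallest p at day 5 among the genes with a window and has no E-box in it.
Nop2, chr6:125131633-125131882, + strand: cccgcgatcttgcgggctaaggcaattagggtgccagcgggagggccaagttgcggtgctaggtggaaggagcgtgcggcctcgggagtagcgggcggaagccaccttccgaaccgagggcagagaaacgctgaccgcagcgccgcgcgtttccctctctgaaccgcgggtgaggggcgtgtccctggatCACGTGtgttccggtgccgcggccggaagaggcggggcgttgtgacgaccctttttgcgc
Dkc1, chrX:75095604-75095853, + strand: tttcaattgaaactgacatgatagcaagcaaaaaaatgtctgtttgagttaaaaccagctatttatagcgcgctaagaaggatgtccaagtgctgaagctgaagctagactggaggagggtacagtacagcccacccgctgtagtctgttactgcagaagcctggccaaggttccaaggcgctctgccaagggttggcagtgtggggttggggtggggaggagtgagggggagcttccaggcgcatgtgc

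Other motifs were searched on both strands of the same windows. GGGCGG, the GC box, was in 65.8% of the 38 genes and 66.5% of the table's genes with a window. CCAAT was in 39.5% and 42.7%, and TATAAA in 7.89% and 9.18%. CCGGAAG, a core of Ets factor sites, was in 31.6% and 17.7%. These are matches of letters and were not tested as binding sites.

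The 44 genes spanned a wide range of levels. On the scale of normalised reads per kilobase of exon, the middle of the order lay between Rrs1 and Tcof1, at 819 and 799 in floxed samples at day 3. Npm1, nucleophosmin, an abundant histone and ribosome chaperone of the granular part of the nucleolus, was highest at 24175 reads per kilobase. The order went on with Nhp2 at 3543, Ncl at 2690, Ddx21 at 2293 and Mybbp1a at 2291, and it ended with Polr1e at 191. Npm1 remained highest and Polr1e and Wdr12 were the lowest 2 in null samples at day 5, at 21307, 180 and 180 reads per kilobase. Reads of a gene with copies can be shared or lost in counting: of all stretches of 50 bases in their transcripts, 55.9% for Ddx18, 24.3% for Npm1, 20.4% for Pes1, 19.0% for Fbl and 16.5% for Nop56 also occur in transcripts of other genes. Whether counting used the strand is not given in the sources used here, so values of Tsr1, which overlaps Srr by 1240 exonic bases on the opposite strand, and Bysl, which overlaps Ccnd3 by 361, may hold reads of both.

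At day 5, most of these genes had lower RNA levels in null than in floxed embryoid bodies, and none was higher. The difference took in every role group and was moderate in size, and none of the 7 genes of chromosome 11 passed the test. Their median log2 difference was -0.01, where all genes tested on that chromosome had a median of 0.33. Of the 44 genes, 32 were lower and 0 higher at an adjusted p under 0.05 (limma). Among all 17000 genes tested, 13.5% were lower and 13.0% higher, 26.5% in either direction. The median log2 difference over the 44 was -0.36 against -0.02 over all genes, and it ran from -0.67 for Rrs1 to 0.04 for Nhp2. Of the 37 genes on other chromosomes, all had values below 0 and 32 passed the test, with a median of -0.37. Of all 15668 genes tested off chromosome 11, 8569 had values below 0 and 14.4% were lower by the test. In 35 of the 44 genes all null samples lay below all floxed samples, where 22.2% of all genes did so, and in 0 genes all null samples lay above, where 19.8% did. In bulk samples such as these, fewer cells of a type and less RNA per cell cannot be told apart.

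**Figure D1:**
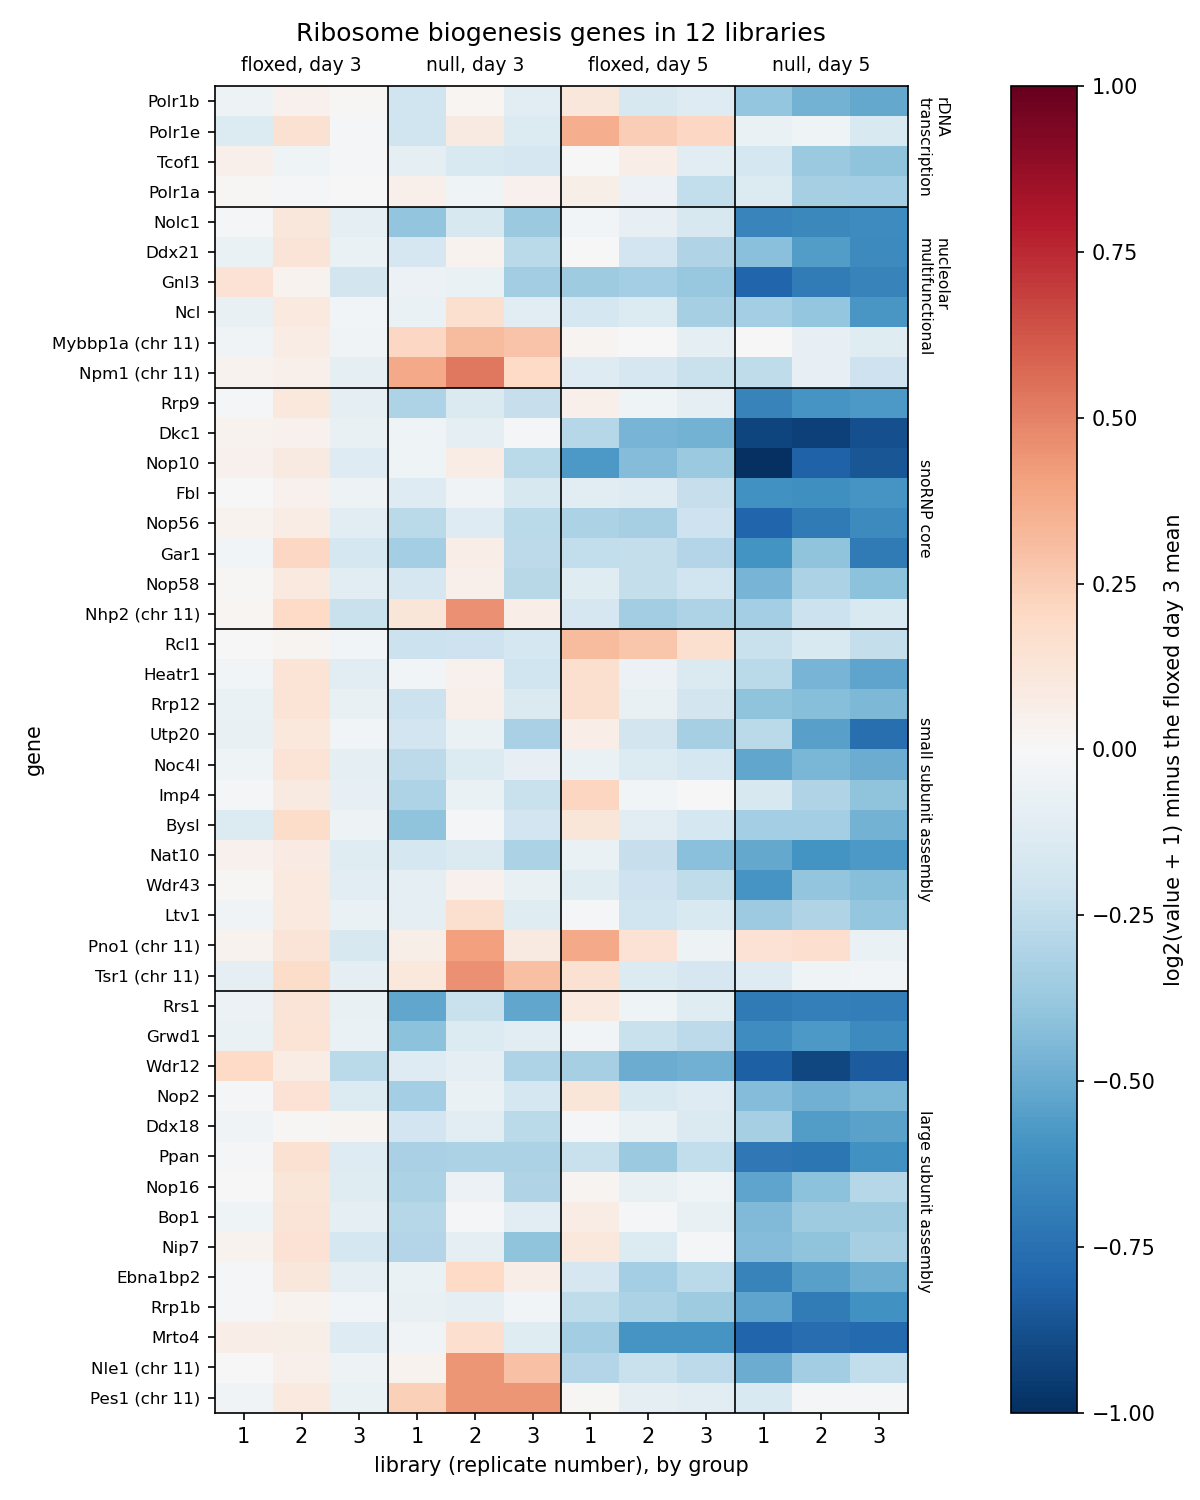
Each row is 1 of the 44 genes and each column 1 of the 12 libraries; colour gives log2(value + 1) minus that gene's mean in the floxed day 3 samples, from -1 (blue) to 1 (red). Within each role group genes are ordered by their difference at day 5. The 3 null day 5 columns are the bluest, and the rows of chromosome 11 genes are red in the null day 3 columns.

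RNA polymerase I and its partner were lower at day 5 in 3 of 4 genes. Polr1b, the second largest subunit of the polymerase, had 3288, 2720 and 2784 normalised reads in the floxed samples and 2331, 2191 and 2131 in the null samples. The groups did not overlap, and the difference was -0.40 ± 0.08 on the log2 scale (adjusted p = 0.00459). Polr1e, a smaller subunit, fell from 899 ± 51.0 in floxed to 700 ± 28.2 in null samples (-0.36 ± 0.10, adjusted p = 0.0191). Tcof1, treacle, which organises ribosomal DNA transcription in the nucleolus, went from 4167 ± 244 to 3384 ± 289 (-0.30 ± 0.07, adjusted p = 0.00860). Polr1a, the largest and catalytic subunit, was the gene of this group that missed the threshold, at 5130 ± 536 against 4499 ± 366 (-0.19 ± 0.08, adjusted p = 0.103).

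Among the abundant nucleolar proteins, 3 of 6 were lower. Nolc1, a chaperone that binds both classes of snoRNP, had 6742, 6476 and 6163 normalised reads in floxed and 4355, 4385 and 4435 in null samples. All null samples were below the lowest floxed sample by more than the spread of either group, and the difference was -0.56 ± 0.07 (adjusted p = 0.000343). Gnl3, nucleostemin, a nucleolar GTPase of stem cells, was at 4680 ± 66.1 against 3642 ± 159 (-0.36 ± 0.09, adjusted p = 0.0127), and Ddx21, an RNA helicase, at 10628 ± 1148 against 8188 ± 643 (-0.37 ± 0.10, adjusted p = 0.0152). Ncl, nucleolin, missed the threshold at 23605 ± 1646 against 20267 ± 1763 (-0.22 ± 0.09, adjusted p = 0.0872). Npm1 and Mybbp1a lie on chromosome 11 and are described below.

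The snoRNP core proteins were lower in 5 of 8 genes, in both classes of particle. Dkc1 had 4666, 4126 and 4093 normalised reads in floxed and 3010, 2980 and 3098 in null samples, without overlap (-0.50 ± 0.07, adjusted p = 0.000290). Nop10, which binds dyskerin in the H/ACA particle, was at 1713 ± 123 against 1251 ± 125 (-0.46 ± 0.10, adjusted p = 0.00715). In the C/D class, Rrp9, the protein specific to the U3 particle, showed the largest difference of the group, 1666 ± 84.1 against 1112 ± 37.2 (-0.58 ± 0.08, adjusted p = 0.000292). Fbl, fibrillarin, the methyltransferase, was at 3171 ± 142 against 2318 ± 23.3 (-0.45 ± 0.06, adjusted p = 0.000360), and Nop56, a scaffold protein, differed by -0.43 ± 0.07 (adjusted p = 0.00125). Nop58, the partner of Nop56, and Gar1, the outer H/ACA protein, missed the threshold at -0.21 ± 0.09 and -0.31 ± 0.13 (adjusted p = 0.0831 and 0.0851).

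Small subunit factors were lower in 9 of 12 genes. Rcl1, a processome component involved in an early cleavage, had 1526, 1485 and 1372 normalised reads in floxed and 1052, 1102 and 1038 in null samples, again without overlap (-0.46 ± 0.07, adjusted p = 0.000618). Noc4l, a nucleolar assembly protein, was at 1303 ± 51.3 against 1012 ± 23.4 (-0.36 ± 0.08, adjusted p = 0.00571). Heatr1, a large scaffold of the processome, was at 6828 ± 769 against 5147 ± 485 (-0.41 ± 0.10, adjusted p = 0.0104). The other 6 that passed were Wdr43, Utp20, Imp4, Rrp12, Nat10 and Bysl, with log2 differences from -0.39 for Rrp12 to -0.27 for Wdr43. The null and floxed samples of Utp20 overlapped. Ltv1, a late export factor of the small subunit, missed the threshold at 1520 ± 103 against 1294 ± 38.9 (-0.23 ± 0.09, adjusted p = 0.0669).

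Large subunit factors made up the group with the highest share, 12 of 14 genes. Rrs1, which helps bring ribosomal proteins into the early large subunit, had 1795, 1622 and 1537 normalised reads in floxed and 1027, 1040 and 1038 in null samples. Its null samples were nearly identical and far below the floxed samples, and the difference of -0.67 ± 0.09, or -37.2%, was the largest of all 44 genes (adjusted p = 0.000473). Ppan was at 1995 ± 109 against 1511 ± 69.9 (-0.40 ± 0.08, adjusted p = 0.00304), and Ddx18, an RNA helicase, at 2628 ± 121 against 1993 ± 176 (-0.40 ± 0.07, adjusted p = 0.00234). Not all genes of the PeBoW complex, which processes the precursor of the large subunit, passed the test. Its members Bop1 and Wdr12 were lower by -0.38 ± 0.08 and -0.42 ± 0.11 (adjusted p = 0.00590 and 0.0122), while Pes1, on chromosome 11, was at 5145 ± 242 and 5159 ± 270. All genes tested on that chromosome had a median difference of 0.33, so Pes1 is not directly comparable with the other members. The other 7 that passed were Nop2, Nop16, Nip7, Mrto4, Grwd1, Ebna1bp2 and Rrp1b, from -0.44 for Grwd1 to -0.27 for Mrto4.

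**Figure D2:**
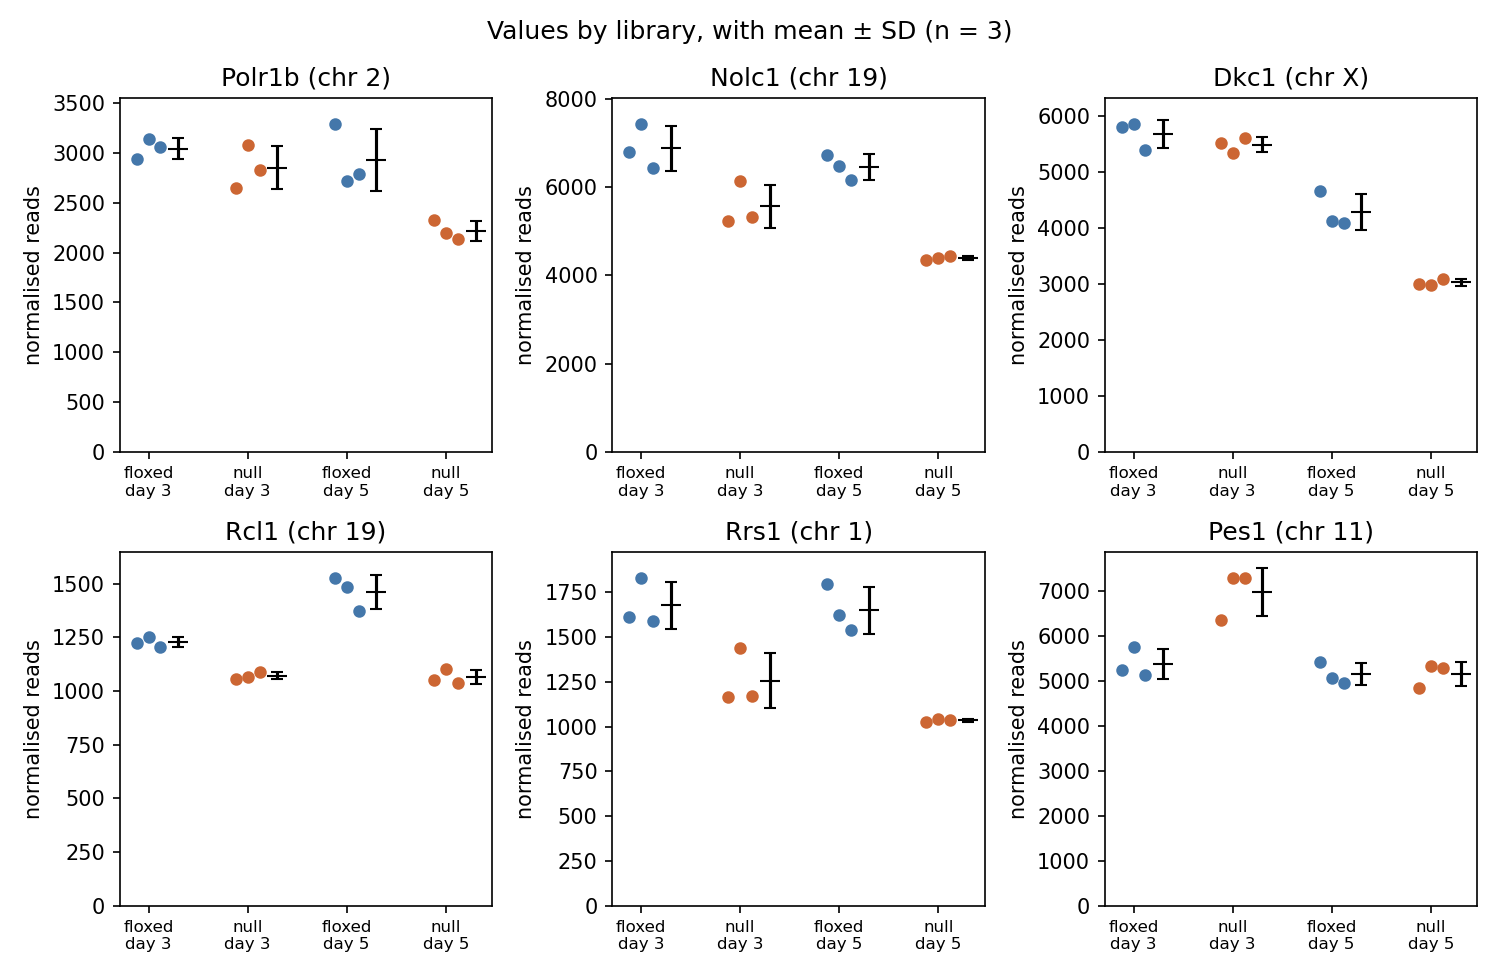
Normalised reads per library (y axis, from 0) in the 4 groups (x axis) for Polr1b, Nolc1, Dkc1, Rcl1, Rrs1 and the chromosome 11 gene Pes1; coloured points are libraries and black bars the mean ± SD (n = 3). In the first 5 genes the null day 5 points lie below all floxed day 5 points, and in Pes1 they overlap them while the null day 3 points lie above the floxed ones.

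Calls near the threshold moved with single libraries and settings. Of the 32 genes, 22 were called without every single library in turn, and 10 lost the call without at least 1. Without floxed day 5 replicate 1, 22 genes were called, without null day 5 replicate 3 there were 25, without null day 5 replicates 2 and 1 there were 28 and 29, and without floxed day 5 replicates 2 and 3 there were 30 and 32. Without a day 3 library, the number was 30 to 34. Calls over all genes tested moved too, from 2292 lower and 2217 higher with all libraries. They were 1563 and 1669 without floxed day 5 replicate 1, and 1695 and 1614 without null day 5 replicate 3. Without floxed day 5 replicate 3, where 32 of the 44 were called, they were 1528 and 1695. The highest adjusted p over the left-out libraries was 0.0661 for Imp4, 0.0662 for Nip7, 0.0652 for Wdr43, 0.0653 for Ddx21, 0.0720 for Polr1e, 0.0724 for Ebna1bp2, 0.0862 for Nat10, 0.162 for Utp20, 0.170 for Mrto4 and 0.173 for Bysl. Bysl and Mrto4 were not called under trimmed mean (TMM) or upper-quartile scaling or with edgeR on recovered reads, and Utp20 was not called under upper-quartile scaling or edgeR. With the replicate number as a block, 36 genes were lower: Ncl, Gar1, Nop58 and Ltv1 joined the 32 (adjusted p = 0.0254, 0.0191, 0.0403 and 0.0425). The block also raised the calls over all genes tested, to 2936 lower and 2702 higher. Polr1a was called only without floxed day 5 replicate 3 or null day 5 replicate 1, with a lowest adjusted p of 0.0316.

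The chromosome 11 genes stood apart from the other 37 at both days. Across all 1332 genes of chromosome 11 that were tested, the median null minus floxed difference was 0.36 at day 3 and 0.33 at day 5, so that genes of this chromosome as a whole had higher values in the null samples. Of the 7 genes, 0 passed the limma test at day 5, 0 had an unadjusted p under 0.05, edgeR called 0, and their median was -0.01. Among the 1332 genes, limma called 41.3% higher and 2.63% lower at day 5, and 752 had an unadjusted p under 0.05. Npm1 had 58974, 57331 and 55191 normalised reads in floxed and 53867, 60697 and 55783 in null samples at day 5 (-0.01 ± 0.09). Mybbp1a, a nucleolar protein that also binds transcription factors, had 13560, 13281 and 12476 against 13267, 12549 and 12222 (-0.05 ± 0.06). Both genes overlapped between the groups.

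The small subunit and H/ACA genes of chromosome 11 gave the same picture at day 5. Nhp2, the RNA-binding protein of the H/ACA particle, had 3596, 3173 and 3261 normalised reads in floxed and 3179, 3479 and 3631 in null samples (0.04 ± 0.12). Pno1, which helps to form the end of the small subunit RNA, had 2401, 2040 and 1783 against 2040, 2069 and 1757 (-0.08 ± 0.13). Tsr1, a late small subunit factor, had 4356, 3558 and 3489 against 3586, 3810 and 3849 (-0.01 ± 0.11). In all 3 genes the groups overlapped, and the signs of Npm1, Nhp2, Pno1, Tsr1 and Pes1 turned with the scaling or with 1 library. For the large subunit, Pes1 had 5419, 5054 and 4962 against 4848, 5332 and 5296 (0.00 ± 0.07), and Nle1, a factor of large subunit remodelling, had 668, 700 and 681 against 579, 642 and 692 (-0.10 ± 0.10).

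When the chromosome's own median was subtracted, 6 of the 7 genes were lower at day 5 and the number of genes called rose to 38. The centred differences were -0.34 for Npm1 (adjusted p = 0.0138), -0.37 for Mybbp1a (0.00143), -0.40 for Pno1 (0.0336), -0.34 for Tsr1 (0.0377), -0.32 for Pes1 (0.00888) and -0.43 for Nle1 (0.0119). Nhp2 stood at -0.29 (0.0882). These sizes lie within the range of the 37 genes on other chromosomes, -0.67 to -0.19. The subtraction lowered every chromosome 11 gene by the same 0.33, so the shift of the 7 genes arose by construction. Their centred values restate how far each lay from the chromosome's median and add no separate support. Whether the offset of chromosome 11 reflects the line or the genotype cannot be told apart.

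**Figure D3:**
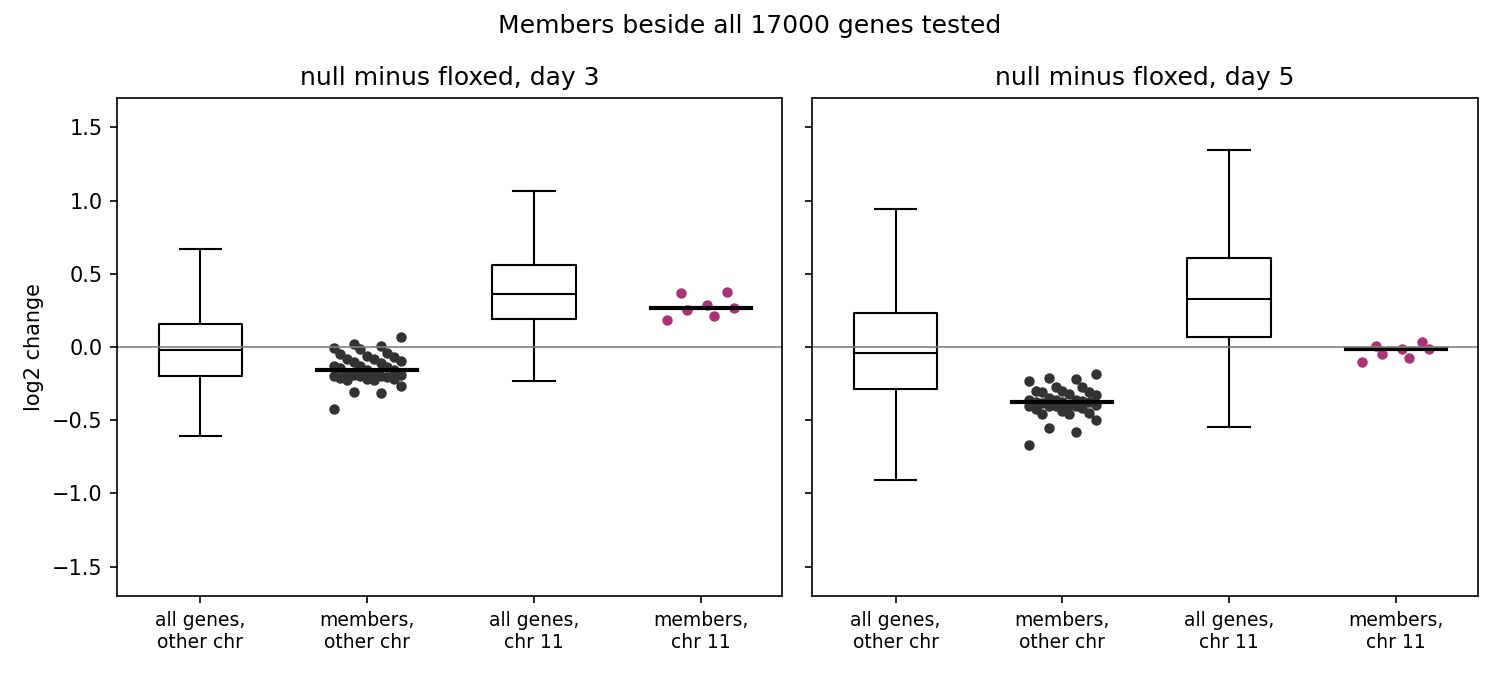
Log2 difference null minus floxed (y axis) at day 3 and day 5; boxes give the quartiles and whiskers the 5th and 95th percentiles of all genes tested, points are the 44 genes and thick bars their medians, on chromosome 11 and on other chromosomes. At day 5 the genes on other chromosomes have a median of -0.37, and the 7 on chromosome 11 lie near -0.01 while all genes of that chromosome have a median of 0.33.

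At day 3 the difference between the lines was small. Of the 44 genes, 3 were higher and 3 lower in null samples, against 4.09% higher and 2.03% lower among all genes, 6.12% in either direction. All 3 that were higher lie on chromosome 11, all 3 that were lower lie elsewhere. Among all 1332 chromosome 11 genes tested, 30.3% were higher and 0.225% lower at day 3. The median over the 44 was -0.13, and -0.16 over the 37 on other chromosomes, of which 34 had values below 0. Of all 15668 genes tested off chromosome 11, 8448 had values below 0. The median over the 44 was -0.075 without floxed day 3 replicate 2 and -0.086 without null day 3 replicate 3. Null samples lay entirely below floxed samples in 11 genes and above in 3, where 13.1% and 14.8% of all genes did so.

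Rrs1, Ppan and Nolc1 were the 3 lower genes. Rrs1 had 1612, 1831 and 1591 normalised reads in floxed and 1166, 1436 and 1169 in null samples (-0.42 ± 0.09, adjusted p = 0.0207). Nolc1 had 6790, 7432 and 6436 against 5241, 6136 and 5329 (-0.31 ± 0.07, adjusted p = 0.0293), and Ppan 2431 ± 239 against 1944 ± 6.5 (-0.32 ± 0.08, adjusted p = 0.0305). In each the groups did not overlap. Nop56 and Rrp9, of the C/D snoRNPs, had values of -0.22 ± 0.07 and -0.23 ± 0.08 (adjusted p = 0.0851 and 0.0981), and Rcl1 and Nat10, of the small subunit, -0.20 ± 0.07 and -0.21 ± 0.09 (adjusted p = 0.103 and 0.186). For ribosomal DNA transcription, Tcof1, Polr1b and Polr1e stood at -0.14 ± 0.07, -0.10 ± 0.08 and -0.08 ± 0.10 (adjusted p = 0.263, 0.534 and 0.682).

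Npm1, Mybbp1a and Pes1 were the 3 higher genes. Npm1 had 66040, 66746 and 60489 normalised reads in floxed and 83820, 92669 and 73996 in null samples (0.37 ± 0.09, adjusted p = 0.0248). Mybbp1a had 12973, 13977 and 12931 against 15305, 16537 and 16198 (0.27 ± 0.06, adjusted p = 0.0242). Pes1 had 5250, 5762 and 5130 against 6352, 7279 and 7290 (0.37 ± 0.07, adjusted p = 0.0116). In these genes every null sample was above every floxed sample. The other 4 genes of the chromosome were above 0 without passing: Nhp2 had 4095, 4631 and 3454 against 4386, 5522 and 4218 (0.21 ± 0.12), and Pno1 had 1885, 2018 and 1646 against 1916, 2454 and 1959 (0.19 ± 0.13). Tsr1 had 3670, 4452 and 3682 against 4221, 5377 and 4818 (0.29 ± 0.11), and Nle1 had 819, 847 and 790 against 837, 1113 and 1001 (0.26 ± 0.10). Their groups overlapped, with null replicate 2 the highest sample in all 4. After the chromosome's median was subtracted, Npm1 and Pes1 both stood at 0.01, the other 5 were below 0, and none of the 7 was called.

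The 6 calls of day 3 each depended on single libraries of that day. The number called was 0 without floxed replicate 1, 2 without floxed replicate 2, 4 without floxed replicate 3, 2 without null replicate 1, 3 without null replicate 2 and 1 without null replicate 3. Calls over all genes tested fell as well, from 696 higher and 345 lower with all libraries. Without floxed replicates 1, 2 and 3, 316, 454 and 510 were higher and 126, 196 and 238 lower. Without null replicates 1, 2 and 3, 553, 510 and 293 were higher and 217, 268 and 133 lower. The highest adjusted p over the left-out libraries was 0.0550 for Pes1, 0.0805 for Npm1, 0.0856 for Rrs1, 0.0920 for Mybbp1a, 0.115 for Nolc1 and 0.119 for Ppan. Without the 4 libraries numbered 3, an alternative chosen after the data were seen, 0 of the 44 genes were called at day 3 and 26 at day 5. Over all genes tested, that setting called 249 higher and 133 lower at day 3, and 1302 and 1290 at day 5.

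**Figure D4:**
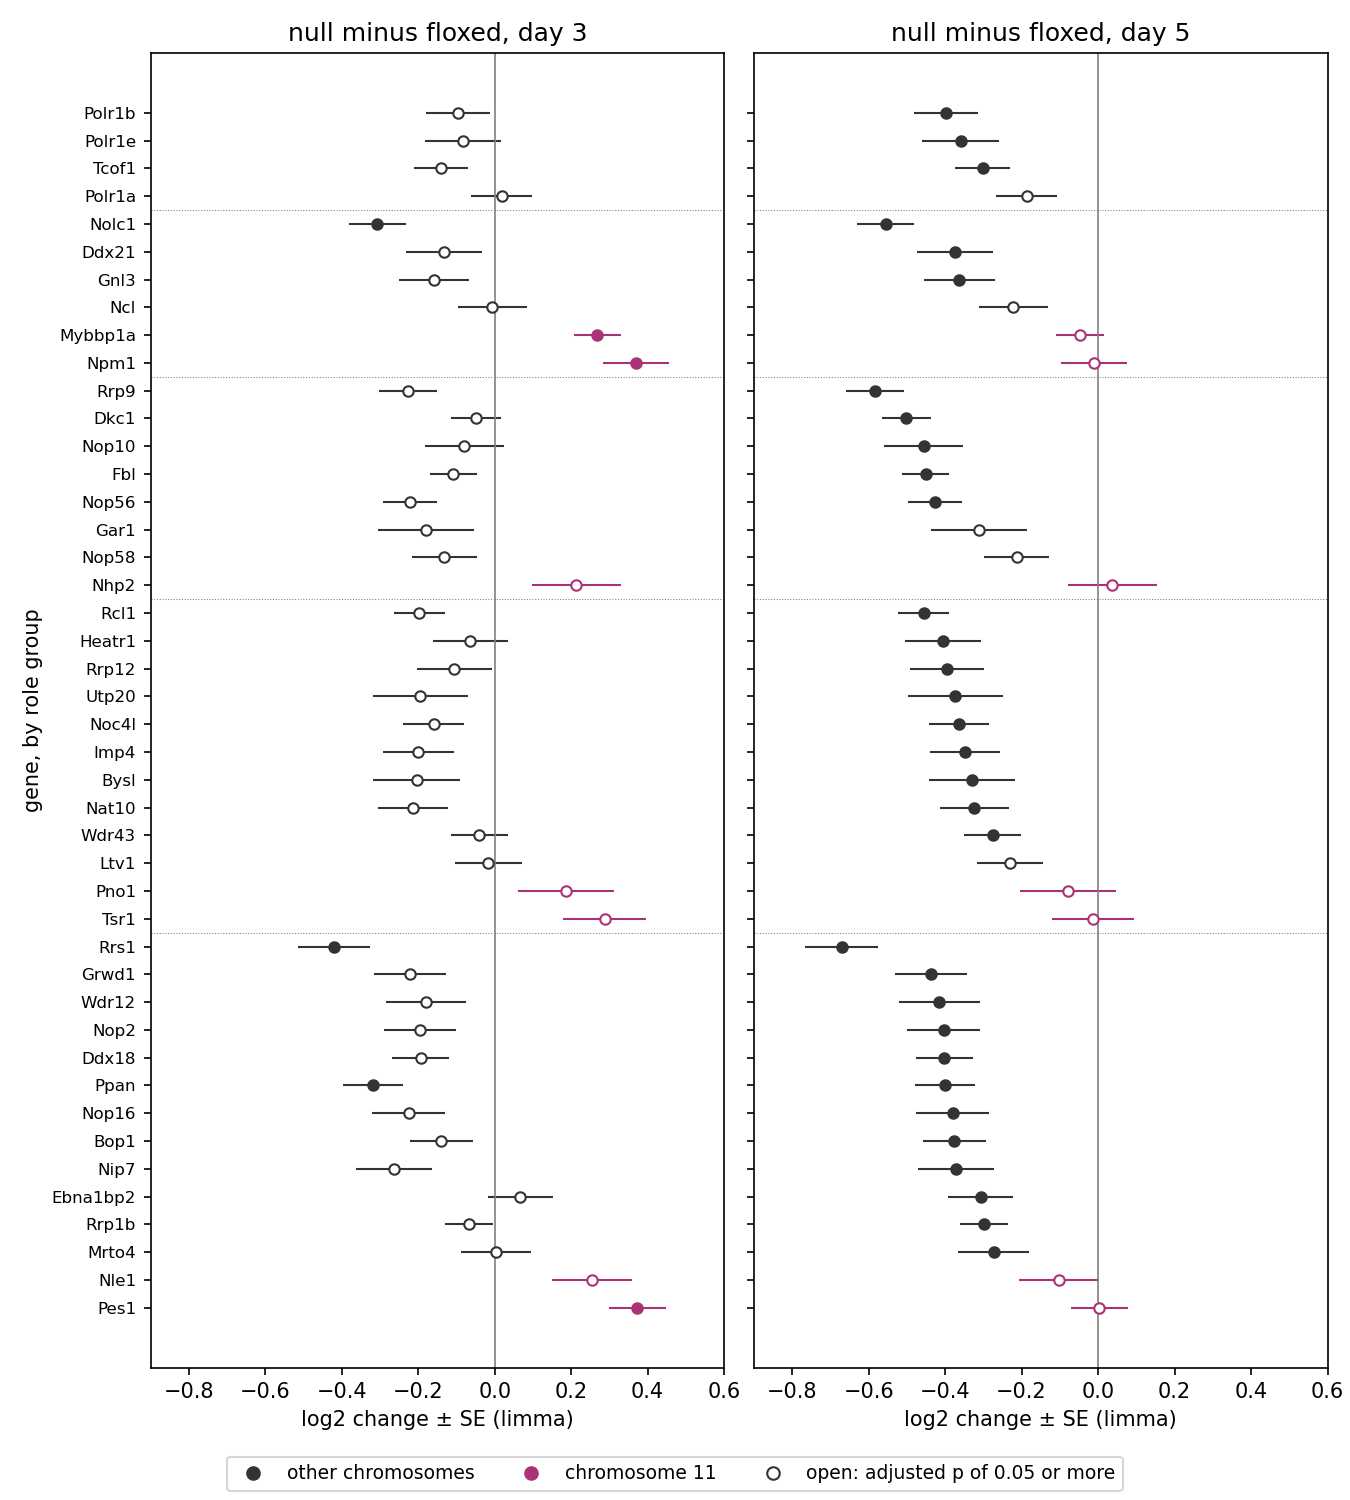
Log2 difference null minus floxed ± SE from limma (x axis) for each of the 44 genes (y axis, by role group, dotted lines between groups) at day 3 and day 5; filled points have an adjusted p under 0.05, purple marks chromosome 11. At day 3, 6 points are filled, 3 of them purple and above 0; at day 5, 32 are filled, all of them below 0 and none purple.

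With all libraries, the difference between the lines was below its day 3 value at day 5 in all 44 genes. The same held for 8874 of all 17000 genes tested. Without null day 3 replicate 2 the value of Nop58 turned to 0.0099. No single gene passed a test of that change without a block or a larger pseudocount. The interaction of genotype and day had a median of -0.23 over the 44 genes against -0.02 over all genes, and it ran from -0.45 for Dkc1 to -0.08. With limma 0 of the 44 genes were called at an adjusted p under 0.05, and edgeR on recovered reads called 0. An unadjusted p under 0.05 was found in 15 of the 44 and in 2412 of all 17000 genes (limma). Among all genes 0.476% were called, 0.247% above and 0.229% below 0. Dkc1 came closest: its lines differed by -0.05 ± 0.07 at day 3 and by -0.50 ± 0.07 at day 5, an interaction of -0.45 ± 0.09 (adjusted p = 0.0513). It was called with a pseudocount of 5, and with the replicate block Dkc1 and Fbl were called (adjusted p = 0.0245 and 0.0463). Calls over all genes tested rose under both settings, from 42 above and 39 below 0. They were 50 and 53 with the pseudocount of 5, and 212 and 231 with the block. Fbl had an interaction of -0.34 ± 0.09 (adjusted p = 0.0981 without the block). The chromosome 11 genes Npm1, Pes1, Nle1, Mybbp1a, Tsr1, Pno1 and Nhp2 had interactions of -0.38, -0.37, -0.36, -0.32, -0.30, -0.26 and -0.18, and none passed (adjusted p from 0.130 for Mybbp1a to 0.683 for Nhp2). For Rrp9, Ebna1bp2 and Polr1b the values were -0.36, -0.37 and -0.30 (adjusted p = 0.151, 0.179 and 0.268).

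Between the days in the floxed line, the share of these genes called as falling was near that of all genes, but fewer rose and most lay below 0. Of the 44, 10 fell from day 3 to day 5 and 2 rose, against 19.2% and 22.5% of all genes, 41.7% in either direction. Values below 0 were found in 40 of the 44 and in 8498 of all 17000 genes. The median change was -0.12 over the 44 and 0.0002 over all genes. The median over the 44 was -0.075 without floxed day 5 replicate 3 and -0.081 without floxed day 3 replicate 2. In the null line 36 fell and 0 rose, against 21.9% and 22.6%, 44.5% in either direction. The median there was -0.35 against 0.004 over all genes, with values below 0 in all 44 and in 8446 of all genes. Each of these comparisons shares its samples with the genotype comparisons above, so their values are given side by side and add no independent support. The test of whether the lines changed differently is the interaction already given.

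In the floxed line, the falls were largest in Mrto4, Nop10, Wdr12 and Dkc1. Mrto4, a large subunit factor related to a ribosomal stalk protein, went from 2784 ± 213 at day 3 to 1962 ± 196 at day 5 (-0.51 ± 0.09, adjusted p = 0.000778). Wdr12 fell by 0.44 on the log2 scale (adjusted p = 0.00501) and Nop10 by 0.46 (adjusted p = 0.00324). Dkc1 went from 5812, 5862 and 5400 to 4666, 4126 and 4093 (-0.41 ± 0.07, adjusted p = 0.000305). Gnl3 and Nop56 fell by 0.36 and 0.29 (adjusted p = 0.00721 and 0.00593), and Rrp1b, a nucleolar protein of large subunit processing, by 0.31 (adjusted p = 0.00150). Ppan, Ebna1bp2 and Wdr43 were the other 3 (adjusted p = 0.0109, 0.0260 and 0.0497). The 2 genes that rose were Rcl1, from 1222, 1252 and 1206 to 1526, 1485 and 1372 (0.25 ± 0.07, adjusted p = 0.00908), and Polr1e, from 746 ± 75.4 to 899 ± 51.0 (0.27 ± 0.10, adjusted p = 0.0438). In the null line both genes stayed near their day 3 level, with changes of -0.01 ± 0.07 for Rcl1 and -0.00 ± 0.10 for Polr1e.

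In the null line, the falls included all 6 abundant nucleolar proteins, all 8 snoRNP proteins and 12 of 14 large subunit factors. Dkc1 fell from 5534, 5344 and 5607 to 3010, 2980 and 3098 normalised reads, a change of -0.86 ± 0.07 (adjusted p = 2.18e-06) and the largest among the 44 genes. Nop10 and Mrto4 followed with -0.84 ± 0.10 and -0.78 ± 0.09 (adjusted p = 5.06e-05 and 3.42e-05). Fbl, Rrp1b and Ebna1bp2 fell by 0.50, 0.54 and 0.63 (adjusted p = 4.75e-05, 3.01e-05 and 8.70e-05). Of the chromosome 11 genes, 6 of 7 fell: Nle1 by 0.62, Npm1 by 0.55, Nhp2 by 0.45, Pes1 by 0.43, Tsr1 by 0.35 and Mybbp1a by 0.34, while Pno1 stood at -0.10 ± 0.13 (adjusted p = 0.529). In ribosomal DNA transcription 2 of 4 fell, Polr1b by 0.36 and Polr1a by 0.29 (adjusted p = 0.00346 and 0.0104), and in small subunit assembly 8 of 12. The 8 genes that did not pass were Polr1e, Tcof1, Imp4, Pno1, Bysl, Rcl1, Nop16 and Nip7. With the replicate block Tcof1 was also called (adjusted p = 0.0331).

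Several calls between the days rested on single libraries. In the floxed line, 8 of the 12 genes were called without every library in turn. Polr1e, Wdr43, Ppan and Ebna1bp2 were not, with a highest adjusted p of 0.180, 0.189, 0.0597 and 0.114. The lowest number called was 8, without floxed day 5 replicate 2. Of all genes tested, 2715 fell and 3268 rose without that library, against 3270 and 3824 with all libraries. In the null line 28 of 36 were called without every library, and the number was lowest, 28, without null day 3 replicate 2. Of all genes tested, 3124 fell and 3244 rose without that library, against 3730 and 3841. The 8 others of the 36 were Nop58, Gar1, Utp20, Rrp12, Tsr1, Bop1, Nop2 and Rrs1, with a highest adjusted p from 0.0786 for Rrp12 to 0.192 for Utp20.

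The day 5 values are given by E-box without a test of a difference. Over all windows, 5 of the 11 genes with an E-box were lower, with a median null minus floxed difference of -0.23, and 22 of the 27 without one, with a median of -0.37. Of the 11, 5 lie on chromosome 11. Off that chromosome, the 6 genes with an E-box in the window had a median of -0.36, and 5 of 6 were lower. The 26 without one had a median of -0.37, and 22 of 26 were lower. The 5 on chromosome 11 are Pes1, Nle1, Tsr1, Pno1 and Mybbp1a, whose sequences are printed above. SnoRNA genes lie inside 8 of the 44 genes: Ncl, Gnl3, Nop56, Nop58, Dkc1, Wdr43, Tsr1 and Ppan. At day 5, 5 of these 8 were lower, with a median of -0.32, against 27 of the 36 others, with a median of -0.37.

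Myc genes, known activators of this pathway, were measured in the same samples. Myc had 477, 389 and 261 normalised reads in floxed and 147, 120 and 68.6 in null samples at day 5, without overlap (-1.76 ± 0.30, adjusted p = 0.00140). At day 3 it had 172 ± 31.6 against 113 ± 28.7 (-0.62 ± 0.30, adjusted p = 0.240, and 0.0225 with the replicate block). Mycn, the more abundant of the family here, was at 2855 ± 254 against 2234 ± 265 at day 5 (-0.36 ± 0.11, adjusted p = 0.0342) and at 1347 ± 155 against 1153 ± 121 at day 3 (-0.22 ± 0.11, adjusted p = 0.265). Mycl was at 2490 ± 692 against 1502 ± 401 at day 5 (-0.73 ± 0.27, adjusted p = 0.0604). With the block Mycl was called (adjusted p = 0.00167). From day 3 to day 5, Myc, Mycn and Mycl all rose in the floxed line, by 1.10 ± 0.30, 1.09 ± 0.11 and 1.60 ± 0.27 (adjusted p = 0.00988, 1.34e-05 and 0.000426). In the null line Mycn and Mycl also rose, by 0.95 ± 0.11 and 0.90 ± 0.27 (adjusted p = 3.69e-05 and 0.0152), and Myc stood at -0.04 ± 0.30 (adjusted p = 0.919). The part of the Myc genes in the values of the 44 genes was not tested.

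Other genes of the pathway were also lower at day 5 in part. In 5 further lists with 121 genes, 119 of them tested, 38 were lower (31.9%, against 13.5% of all genes) and 3 higher (2.52%, against 13.0%) in null samples at day 5, with a median of -0.20. Off chromosome 11 the counts were 38 lower and 1 higher of 108, with a median of -0.21. Other polymerase I genes counted 3 lower of 13, led by Taf1c of the promoter selectivity factor (-0.43 ± 0.09, adjusted p = 0.00460), the subunit Znrd1 (-0.46 ± 0.10, 0.00614) and the initiation factor Rrn3 (-0.31 ± 0.09, 0.0243). Baz2a, a subunit of a complex that silences ribosomal DNA, was higher (0.47 ± 0.15, adjusted p = 0.0340). Other processome genes counted 16 lower of 39, led by Utp15, Tbl3 and Emg1 (-0.52, -0.44 and -0.37), and 2 higher, Utp18 and Nol11, both on chromosome 11 (0.24 and 0.27). Other large subunit genes counted 11 lower of 44, led by Wdr18, Wdr74 and Eif6 (-0.36, -0.39 and -0.48). The snoRNP assembly factors counted 4 lower of 10, led by the ATPases Ruvbl1 and Ruvbl2 and the shared core protein Snu13 (-0.56, -0.34 and -0.42), and the RNA exosome, which trims precursors, 4 lower of 13, led by Exosc4, Exosc2 and Exosc5 (-0.38, -0.39 and -0.29). At day 3, 6 of the 119 were higher (5.04%, near the 4.09% of all genes), 5 of them on chromosome 11, and 1 was lower, Taf1c (0.840%, against 2.03%).

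Markers of other cell states were read in the same comparison, where 13.5% of all genes were lower and 13.0% higher at day 5. Of 16 proliferation markers, 8 were lower and 2 higher in null samples at day 5, with a median of -0.17, and Pcna differed by -0.56 ± 0.07 (adjusted p = 0.000169). The 2 higher ones, Top2a and Birc5, lie on chromosome 11, and Mki67 stood at 0.18 ± 0.13 (adjusted p = 0.347). The sum of the 16 ran from 127001 to 142717 in floxed and from 132804 to 138749 in null samples. Of 6 pluripotency markers 3 were lower, Pou5f1, Sox2 and Esrrb (-1.04, -0.76 and -1.48), with sums of 8605 to 11774 and 4737 to 7389. Of 4 primed epiblast markers 3 were lower, Fgf5, Otx2 and Dnmt3b (-1.03, -1.08 and -0.46), with sums of 8995 to 12110 and 6890 to 8971. Neural, streak and endoderm lists each had 1 lower gene of 5, Zic1, T and Foxa2 (-3.30, -2.18 and -1.38), and none higher. Their medians were -0.78, 0.14 and -0.16, and 0, 3 and 2 of their 5 genes had values above 0. Their sums were 8562 to 14126 against 5527 to 7598, 364 to 588 against 274 to 385, and 542 to 1720 against 771 to 1025. Feeder fibroblast markers had 0 of 10 called at day 5 by limma, 2 with an unadjusted p under 0.05 and 1 by edgeR (Col3a1, adjusted p = 0.0297), with sums of 3206 to 4944 and 3198 to 4745, and Postn was the 1 marker at 0 in any library, in 3 libraries of day 3. The part of these cell states in the lower values of the ribosome biogenesis genes was not tested.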

How the data were processed

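Total RNA of 12 embryoid body samples, 4 groups of 3, was sequenced from stranded libraries made with 8 PCR cycles, per the labels' protocols. The deposited table holds signal values, read counts that the authors divided by 1 size factor per sample. Per the submitters' processing notes, the build was mm10 and the tools were TopHat2 (2.0.10), CASAVA (1.8.2), DESeq (1.16.0) and also HTSeq (0.6.0), with roles not given. Every value was a whole multiple of what 1 read is worth in its column (100% of values, tolerance 0.01), so that reads were recovered, 18022071 to 29446068 per library. Symbols and positions came from GENCODE M21 (GRCm38) by gene ID, for 18199 of 18269 genes, and promoter windows from RefSeq (GRCm38.p6).

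The test was limma-trend (limma 3.58.1, R 4.3.3) on log2(value + 1), which understates changes of low genes. It used 4 group means, 12 samples, 8 residual and 5 prior degrees of freedom, and 17000 genes whose mean reached 10 in 1 group or more; 1269 were below. P-values were two-sided and Benjamini-Hochberg adjusted over all 17000 genes, with a threshold of 0.05, for 5 contrasts. The scripts were tested on simulated data. Alternatives were a pseudocount of 5, no filter, TMM and upper-quartile scaling, edgeR 4.0.16 quasi-likelihood on recovered reads, chromosome 11 centred on its median, a replicate block, and each library left out.

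Replicate numbers paired the samples of the genotype comparisons: deviations from the group mean correlated at r = 0.270 to 0.372 between same-numbered null and floxed samples at day 3 and 0.247 to 0.424 at day 5, and at 0.123 to 0.282 between the days of the null line. The labels do not say what the number marks.

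The genes, lists and rules were chosen with earlier results of these data known. In each contrast the 3 genes of smallest p per role group were named, with every chromosome 11 gene, every gene called against the majority or not called at day 5, Kat2a, Myc, Mycn, Mycl, and 3 genes per further list. Promoters by rule were the 5 E-box genes of smallest p at day 5 and Dkc1; the other 6 E-box genes and all remaining named genes were added after their values were seen. List genes without a row, such as Riok2, Exosc6, Lum, S100a4 and Mesp1, were not analysed here.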

Additional observations from a re-analysis of the deposited data

How the results depend on the processing

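Most counts kept their size: the numbers called at day 5 and between the days of either line moved by at most 1.5 times under all settings tried. At day 3, 3 of the 6 calls were left with chromosome 11 centred, 0 without the 4 replicate 3 libraries, and 0 to 6 without single libraries. The interaction had 1 call with a pseudocount of 5 and 2 with the replicate block. The block gave 36 calls at day 5, 37 between the days of the null line and 18 in the floxed line. Over all genes tested, the block called 2936 lower and 2702 higher at day 5, against 2292 and 2217 without it. In the null line 4139 fell and 4301 rose, against 3730 and 3841. In the floxed line 3724 fell and 4228 rose, against 3270 and 3824. Same-numbered samples of the floxed line correlated at only 0.0814 to 0.214 and are not taken as paired. In the genotype comparisons the block changed no call of the 44 genes beside those given. With chromosome 11 centred, day 3 values turned to -0.090 for Mybbp1a, -0.15 for Nhp2, -0.17 for Pno1, -0.072 for Tsr1 and -0.10 for Nle1, and day 5 values to -0.29 for Nhp2 and -0.32 for Pes1, by construction. Other day 5 values near 0 changed sign: Npm1 to 0.0067 with TMM, 0.035 with upper-quartile scaling and 0.0070 with edgeR, Tsr1 to 0.0042 with TMM and 0.032 with upper-quartile scaling, and without the 4 replicate 3 libraries Nhp2 to -0.022 and Pes1 to -0.042. Without single libraries the day 5 ranges were -0.060 to 0.026 for Npm1, -0.0054 to 0.090 for Nhp2, -0.022 to 0.048 for Pes1, -0.18 to 0.032 for Pno1 and -0.071 to 0.089 for Tsr1. Between the days, Mybbp1a ran from -0.046 to 0.016 and Tsr1 from -0.15 to 0.041 in the floxed line, and Pno1 from -0.17 to 0.0094 in the null line. Upper-quartile scaling moved the split of all genes at day 5 from 2217 higher and 2292 lower to 2574 and 1792; the cause was not tested. Each group held 3 samples and each library 18022071 to 29446068 reads; their effect on the calls was not compared.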
